A study of Mus musculus with 30 samples.

Results

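In mouse embryonic stem cells (ESCs) that carry a Chek1 hairpin and a doxycycline (Dox)-inducible Chek1 rescue, 20 genes changed on Dox withdrawal by at least 0.8 on the log2 scale while changing by less than 0.25 in each of 4 other clones. These 20 genes, each read by 1 probe, were selected on those measured changes from 11177 genes with a detected probe, among 18097 genes on the array. On the arrays as labelled, 6 genes rose and 14 fell without Dox. Chek1 itself read near the floor under both conditions and higher without Dox, on probes that may not read the rescue copy. The values that chose the 20 genes are given as a description, without a test. The rising genes included Dnahc8 (1.01) and Pdgfa and, read from the floor upward so that their changes are bounds, Oasl2, Clec2d, Defcr26 and H2-T23. The falling genes included Actn2 (-1.06), Foxp1 (-0.95) and Fgf15 (-0.94). The restriction to Chek1_R did not hold to the same degree for all of them. Only 8 of the 20 genes had another probe that passed the detection filter. In 5 of these 8, another probe also differed by more than 0.25 in another clone. It was brighter for Oasl2, H2-T23, Bhlhb8 and Rb1 and dimmer for Acsl4. Under all 4 other normalizations tried, 6 genes (Pdgfa, Pabpc1, Dnahc8, Foxp1, Fgf15 and Slc35f2) met the rule. These settings included a floor of 16 and no floor, which left the Chek1_R changes of these 6 genes as they were. Another 6 (Oasl2, Clec2d, Defcr26, H2-T23, Bhlhb8 and Bcl11b) met it under 0 of the 4.

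The cells were rescue clones of the ESC line Ainv15, which expresses the Dox-dependent activator rtTA. Each of Chek1_R, Bub1b_R, Ppm1g_R and Ppp2r1b_R carries a hairpin RNA (shRNA) against the named gene and a Dox-inducible copy that the hairpin spares, and Control_R is the control clone, for which alone the labels name a strain background (129P2/OlaHsd). Cells were kept with 1 µg/ml Dox (+Dox) or 5 days after its withdrawal (-Dox), and RNA from 3 samples per condition, 30 in all, was hybridized to Illumina mouse WG-8 bead arrays. The study derived several independent clones per rescue gene, but the sources used here do not say which of them, or how many, the 3 samples of a condition represent, so clone and targeted gene cannot be told apart. The hairpin of the Chek1_R clone is shown because it defines the clone.
Chek1 hairpin: cccatgtagtagtatcacttt

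Chek1 encodes a checkpoint kinase that, downstream of ATR, slows the cell cycle when DNA replication stalls or DNA is damaged. ESCs divide with little delay before DNA replication and are known to rely heavily on this replication checkpoint. The other targeted genes encode a spindle checkpoint kinase (Bub1b), a metal-dependent phosphatase (Ppm1g) and a scaffold subunit of the phosphatase PP2A (Ppp2r1b).

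The arrays labelled Chek1_R did not show the fall in Chek1 that the design intends. Values throughout are log2 signals after a floor of 32, which is 5 on the log2 scale, and quantile normalization. The Chek1 probe ILMN_2630974 was at 5.00, 5.00 and 5.00 with Dox, where it was detected on 0 of 3 arrays, and at 5.64, 5.84 and 5.27 without Dox, where it was detected on 3 of 3. It was thus at least 1.34-fold higher without Dox, where a probe that reads the Dox-induced copy would be lower. Under both conditions ILMN_2630974 lay below the condition means of the other clones, 6.69 to 7.06. The second probe of the 3 for Chek1 was near the floor in Chek1_R, and the remaining probe was not detected on any Chek1_R array. Whether these probes can read the rescue copy, which lacks the hairpin's target, is not given in the sources used here. Of 16 primitive streak genes past the filter, 12 rose and 0 fell by at least 0.8 in Chek1_R. Their summed signal averaged 1645 with Dox and 12453 without Dox in Chek1_R, and 3848 and 12873 in Bub1b_R. Among them T (brachyury) was higher on the arrays labelled -Dox in all 5 clones, by 4.74 in Chek1_R and 2.35 in Bub1b_R. Mixl1, at the floor with Dox in both, averaged 7.26 and 8.61 without Dox, while Cdx1 differed by 0.93 in Chek1_R and -0.28 in Bub1b_R. Directions below follow the arrays as labelled.

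The ESC label was borne out by marker genes. Pou5f1 averaged 12.1 with Dox and 11.8 without Dox in Chek1_R, and Nanog averaged 12.9 and 13.0. Of 14 ESC identity genes, 13 passed the detection filter (Nr0b1 was not detected). The summed signal of these 13 in Chek1_R was 77269, 74989 and 76466 with Dox and 74592, 71547 and 71357 without Dox. Among them 0 rose and 1 fell by at least 0.8, with a median change of -0.31. The summed signal of 16 primitive streak genes was 1601, 1614 and 1719 with Dox and 12496, 12385 and 12476 without Dox, and 12 of these 16 rose by at least 0.8. None of the 20 genes is on either list. The labels have the clones kept on fibroblast feeders, while the study's text has the cultures for the arrays without them. Markers of fibroblast feeders summed to 9630, 9621 and 9079 with Dox and 9651, 9404 and 9944 without Dox over 11 genes past the filter. The probe with the highest signal was that of Acta2 (12.8 and 12.4), and Col1a2, Postn, Lum and S100a4 were not detected on any array. Of these 11 feeder genes, 4 rose and 1 fell by at least 0.8. The part of differentiated cells or feeders in the changes of the 20 genes was not tested, and in such bulk RNA fewer cells of a type and less RNA per cell cannot be told apart.

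A change of 0.8 in Chek1_R was not rare: 2.81% of 15151 probes past the filter rose and 2.55% fell by that much, and the whole rule kept 0.132%. The arrays of the 2 Chek1_R conditions did not overlap for any of the 20 genes, which the rule nearly fixes, and did not overlap for 41.6% of all probes. Turning the same rule to the other clones gave 21 genes in Bub1b_R, 13 in Ppm1g_R, 16 in Ppp2r1b_R and 12 in Control_R, so the rule returned genes from every clone, the control included. These came from 812 probes past 0.8 in Chek1_R, 446 in Bub1b_R, 306 in Ppm1g_R, 328 in Ppp2r1b_R and 133 in Control_R.

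**Figure D1:**
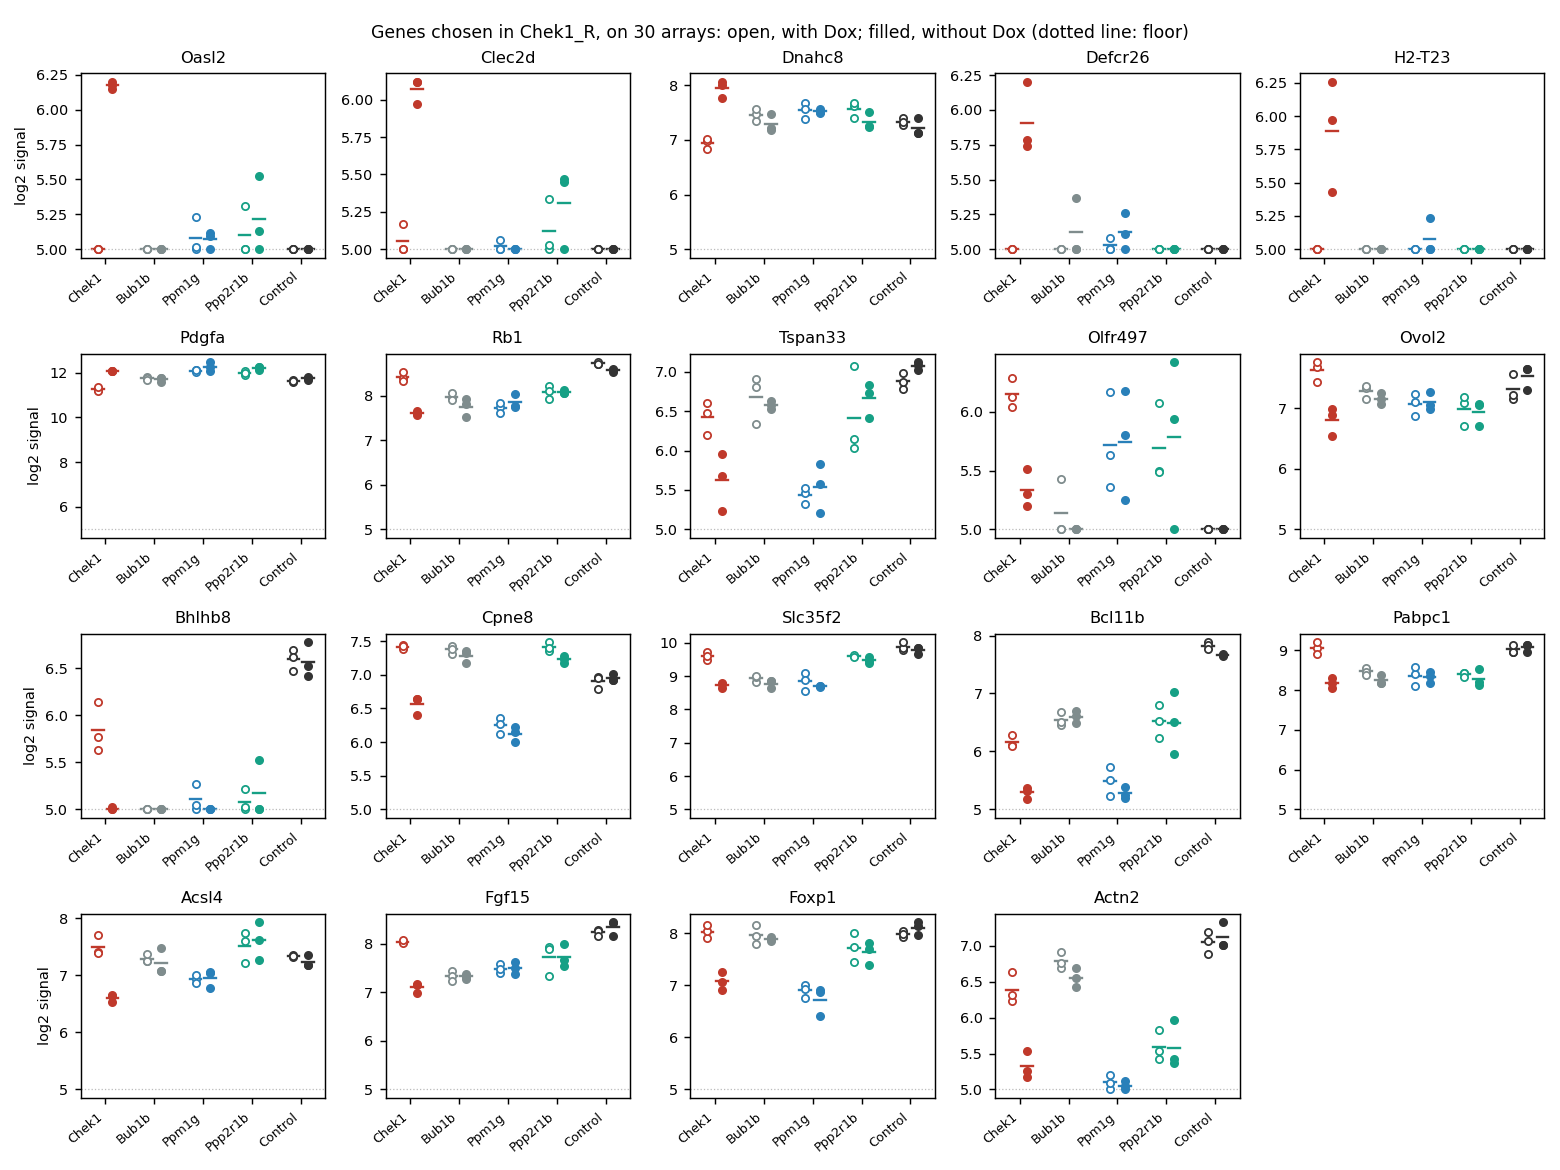
Log2 signal (vertical axis, a scale of its own in each panel) of 19 of the 20 genes on the 30 arrays, by clone. Open circles are +Dox arrays, filled circles -Dox arrays, short lines the means of 3 arrays and dotted lines the floor of 5. Oasl2, Clec2d, Defcr26 and H2-T23 sit at or near the floor outside the -Dox arrays of Chek1_R, and several falling genes, such as Bcl11b and Actn2, span a wider range across clones than within Chek1_R.

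Oasl2, Clec2d, H2-T23 and Defcr26 were the rising genes read by probes at or near the floor. Oasl2, an interferon-stimulated oligoadenylate synthetase-like antiviral protein, was at 5.00, 5.00 and 5.00 with Dox and 6.20, 6.18 and 6.15 without Dox, against a lowest, median and highest value of 5.00, 5.00 and 5.52 on the 24 arrays of other clones. Clec2d, a C-type lectin bound by an inhibitory receptor of natural killer cells, was at 5.00, 5.00 and 5.17 with Dox and 6.12, 5.97 and 6.12 without Dox (other arrays 5.00, 5.00 and 5.47). For both genes every -Dox array of Chek1_R lay above all 24 other arrays. H2-T23, a nonclassical MHC class I molecule, was at 5.00 on all 3 +Dox arrays and at 5.43, 6.26 and 5.97 without Dox (other arrays 5.00, 5.00 and 5.23). Defcr26, an alpha-defensin of the cryptdin family of antimicrobial peptides, was at 5.00 on all 3 +Dox arrays and at 6.20, 5.78 and 5.74 without Dox (other arrays 5.00, 5.00 and 5.37). The spread between the -Dox arrays was widest for H2-T23, with an SD of 0.42, and narrowest for Oasl2, with an SD of 0.03. Detection of these 4 probes was complete without Dox (3 of 3 arrays each) and absent with Dox (0 of 3), so the changes are bounds: Oasl2 was at least 2.02-fold, Clec2d at least 1.88-fold, Defcr26 at least 1.68-fold and H2-T23 at least 1.65-fold higher without Dox, taking the brighter condition's mean over the lowest signal that counted as detected.

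In other clones these probes were mostly at the floor. The Oasl2 probe was detected on 0 of 3 +Dox and 3 of 3 -Dox arrays of Bub1b_R, and the Clec2d probe on 0 of 3 and 3 of 3 arrays of Ppp2r1b_R, with changes under 0.25 on the floored scale. The Defcr26 probe was detected on 0 of 3 +Dox and 2 of 3 -Dox arrays of Bub1b_R. A second, brighter probe of Oasl2 was at 7.63, 7.58 and 7.34 with Dox and 10.76, 10.87 and 10.69 without Dox in Chek1_R, a difference of 3.26 or 9.55-fold. It differed by 1.00 in Ppp2r1b_R and 0.82 in Bub1b_R, in both cases without overlap between the conditions, by 0.05 in Ppm1g_R and by 0.55 in Control_R, where the arrays overlapped. The brighter probe of H2-T23 went from 7.45, 7.52 and 7.26 to 8.87, 8.71 and 8.73 in Chek1_R, a difference of 1.36, and differed by 1.00 in Ppp2r1b_R, 0.51 in Bub1b_R, 0.39 in Control_R and 0.24 in Ppm1g_R. The brighter Oasl2 probe was at the floor on all 3 +Dox arrays of Control_R, so its difference there is a bound. With these probes, Oasl2 and H2-T23 were not confined to Chek1_R. Defcr26 has close relatives that a probe may not tell apart. Defcr-rs7 and Defcr-rs10 differed by 5.45 and 2.97 in Chek1_R and by 2.14 and 1.87 in Ppp2r1b_R, 2.14 and 1.13 in Bub1b_R, and 1.49 and 1.14 in Ppm1g_R, while both were at the floor in Control_R. Defcr6, of the same family, differed by -0.11 in Chek1_R and 0.31 in Ppp2r1b_R.

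**Figure D2:**
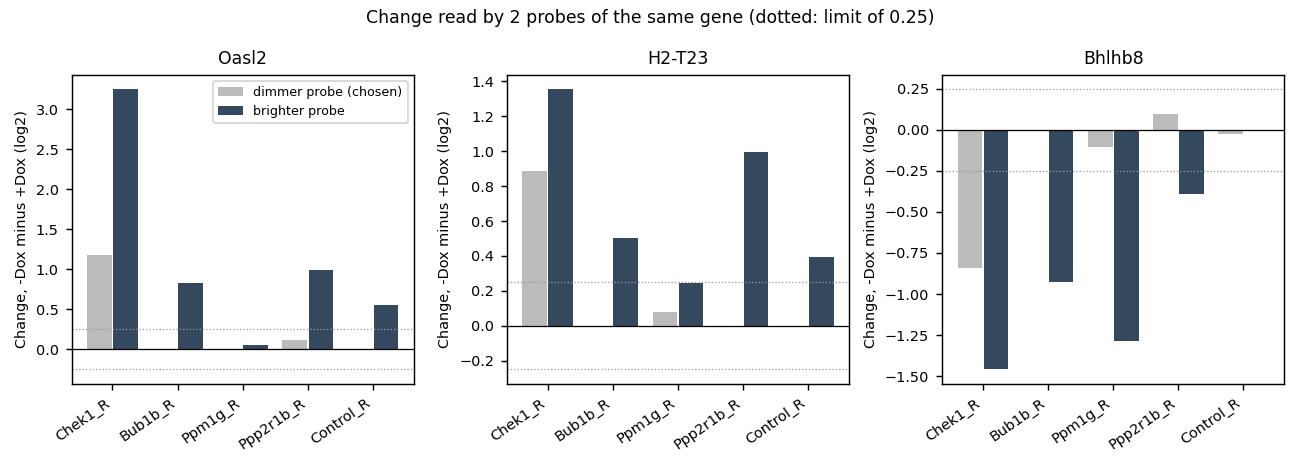
Change on Dox withdrawal (-Dox mean minus +Dox mean, log2) in each clone, read by the dimmer probe that met the rule (light bars) and by the brighter probe of the same gene (dark bars), with dotted lines at 0.25. The brighter probes pass 0.25 in 3 other clones for Oasl2, 3 for H2-T23 and 3 for Bhlhb8.

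A wider list of interferon and antigen presentation genes, whose proteins sense viral nucleic acid, transmit interferon signals or load peptides on MHC molecules, was read on the same arrays. Of its 27 genes 21 passed the filter, 8 rose by at least 0.8 and 0 fell by that much in Chek1_R, with a median change of 0.52 against 0 over all probes. Over all probes past the filter, 2.81% rose and 2.55% fell by that much. Oasl2 was the only one of the 20 genes on this list. Usp18, which restrains interferon receptor signalling, averaged 5.00 with Dox and 10.2 without Dox. It differed in the same direction in Ppp2r1b_R (2.11) and Bub1b_R (1.73), by 0.15 in Ppm1g_R, and was at the floor under both conditions in Control_R. Ifit1, Irf7, Oas1a and Ifih1 were not detected on any array, and the probe with the highest signal, that of Ifitm2, averaged 13.8 with Dox and 13.6 without Dox. The summed signal of the 21 genes was 26746, 29133 and 28532 with Dox and 34960, 35946 and 35863 without Dox in Chek1_R, and the +Dox arrays of Ppm1g_R, between 39127 and 41548, lay above both.

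Promoter windows were searched for short motifs. The RefSeq table (GRCm38.p6) held a window from 250 bases before to 50 bases after the start site for 15 of the 20 genes. GAAA followed after any 2 bases by another GAAA, a pattern of the element bound by interferon regulatory factors, was searched on both strands. It stood in the windows of 2 of the 15 genes, Clec2d and H2-T23, both rising, and in 3.44% of the 32851 windows searched. The shares are per window, and a gene can have several, while the 15 are counted by gene. The match begins 189 bases before the start site in Clec2d, on the gene's strand, and 124 bases before it in H2-T23, on the opposite strand. Oasl2 has no match in this window. Of 4 further motifs searched on both strands, TATAAA stood in the windows of 2 of the 15 genes (13.6% of the windows searched), CCAAT in 5 (37.4%), CACGTG in 1 (7.15%) and TGANTCA in 0 (7.81%). Both windows are printed 5′ to 3′ on the gene's strand with the match in capitals.
Clec2d, chr6:129180365-129180664, plus strand: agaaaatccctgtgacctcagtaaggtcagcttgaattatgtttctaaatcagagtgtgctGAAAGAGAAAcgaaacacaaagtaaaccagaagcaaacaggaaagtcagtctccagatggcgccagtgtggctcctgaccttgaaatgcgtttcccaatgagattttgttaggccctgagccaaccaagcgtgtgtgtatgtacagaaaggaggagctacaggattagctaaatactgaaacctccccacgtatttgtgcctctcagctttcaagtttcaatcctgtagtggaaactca
H2-T23, chr17:36032652-36032951, minus strand: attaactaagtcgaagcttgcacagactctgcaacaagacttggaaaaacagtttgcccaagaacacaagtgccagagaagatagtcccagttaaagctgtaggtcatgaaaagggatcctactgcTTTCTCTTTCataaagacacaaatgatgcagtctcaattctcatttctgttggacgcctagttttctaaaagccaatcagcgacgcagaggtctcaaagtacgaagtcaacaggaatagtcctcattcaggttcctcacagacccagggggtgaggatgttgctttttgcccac

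The other rising genes, Pdgfa and Dnahc8, were bright enough to be read in every clone. Pdgfa, the A chain of platelet-derived growth factor and a ligand of the PDGF receptor alpha, was at 11.24, 11.20 and 11.35 with Dox and 12.08, 12.09 and 12.08 without Dox (other arrays 11.58, 11.86 and 12.48). Here the +Dox arrays of Chek1_R stood apart, below all 24 other arrays, and the -Dox arrays lay inside their range. Dnahc8, an axonemal dynein heavy chain known as Dnah8 in RefSeq, was at 6.97, 7.01 and 6.83 with Dox and 8.00, 7.76 and 8.07 without Dox (other arrays 7.12, 7.40 and 7.68). It was the only one of the 20 genes whose +Dox arrays lay beyond all 24 other arrays on one side and whose -Dox arrays lay beyond them on the other.

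The falling genes are given by role, regulators of transcription and of the cell cycle first. Foxp1, a forkhead transcription factor, was at 7.90, 8.04 and 8.15 with Dox and 7.26, 6.92 and 7.07 without Dox (other arrays 6.41, 7.83 and 8.21), a change of -0.95. In Ppm1g_R Foxp1 was low under both conditions, at means of 6.90 and 6.72, close to the -Dox level of Chek1_R. Rb1, the retinoblastoma protein that holds back entry into DNA replication, was at 8.40, 8.54 and 8.34 with Dox and 7.57, 7.67 and 7.61 without Dox (other arrays 7.52, 8.04 and 8.76). A second probe of Rb1 differed by -0.57 in Chek1_R, -0.36 in Bub1b_R and 0.33 in Ppm1g_R. Ovol2, a zinc finger repressor that maintains epithelial identity, was at 7.69, 7.77 and 7.44 with Dox and 6.89, 6.55 and 6.99 without Dox (other arrays 6.71, 7.16 and 7.66).

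Bcl11b, a zinc finger factor best known for T cell commitment, was at 6.29, 6.11 and 6.10 with Dox and 5.37, 5.32 and 5.19 without Dox. Its other arrays ran from 5.19 to 7.89, with means of 7.83 and 7.67 in Control_R and 5.49 and 5.28 in Ppm1g_R. Bhlhb8 (Bhlha15 in RefSeq), a basic helix-loop-helix factor of secretory cells, was at 5.77, 6.14 and 5.63 with Dox and at the floor, 5.00, 5.02 and 5.00, without Dox, at least 1.69-fold lower. In Bub1b_R the same probe was at the floor under both conditions, yet was detected on 3 of 3 +Dox and 0 of 3 -Dox arrays. A brighter probe of Bhlhb8 differed by -1.46 in Chek1_R, -0.93 in Bub1b_R and -0.39 in Ppp2r1b_R, while in Control_R it averaged 8.16 with Dox and 8.15 without Dox. In Ppm1g_R this probe averaged 6.33 with Dox and 5.04 without Dox, where it was detected on 0 of 3 arrays, so its difference there is a bound and has no order against Chek1_R.

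Fgf15, the falling gene that encodes a secreted ligand of the fibroblast growth factor family, was at 8.02, 8.02 and 8.08 with Dox and 6.99, 7.14 and 7.17 without Dox (other arrays 7.23, 7.56 and 8.44), a change of -0.94. Its changes in the other clones were -0.01 in Bub1b_R, 0.01 in Ppm1g_R, 0.01 in Ppp2r1b_R and 0.11 in Control_R, and all 3 -Dox arrays of Chek1_R lay below the 24 other arrays. Acsl4, an acyl-CoA synthetase that activates long-chain polyunsaturated fatty acids, shared that pattern, at 7.70, 7.40 and 7.40 with Dox and 6.64, 6.52 and 6.65 without Dox (other arrays 6.78, 7.25 and 7.93). Further probes of Acsl4 differed by -0.62, -0.37 and -0.17 in Chek1_R, and the first of these by -0.46 in Ppm1g_R.

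Actn2, an alpha-actinin of the muscle Z-disc, fell from 6.63, 6.23 and 6.31 to 5.54, 5.25 and 5.18. Its levels in other clones ran from 5.00 in Ppm1g_R to 7.33 in Control_R. Pabpc1, a poly(A)-binding protein that protects mRNA tails and promotes translation, fell from 9.05, 9.21 and 8.90 to 8.05, 8.29 and 8.19 on the probe chosen. Its other probes differed by -0.64 and, for the brightest, -0.19, where that probe differed by -0.23 in Bub1b_R.

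Membrane and membrane-binding proteins follow. Slc35f2, a solute carrier, fell from 9.49, 9.72 and 9.60 to 8.78, 8.80 and 8.65, with changes of -0.09 to -0.15 in the other clones. Cpne8, a copine that binds phospholipid with calcium, fell from 7.44, 7.38 and 7.43 to 6.65, 6.40 and 6.64, and Tspan33, a tetraspanin, from 6.61, 6.48 and 6.20 to 5.96, 5.23 and 5.68. Olfr497, an olfactory receptor, fell from 6.29, 6.13 and 6.04 to 5.30, 5.52 and 5.20, and was at the floor on all Control_R arrays. Rb1 (-0.81), Tspan33 (-0.81) and Olfr497 (-0.82) were the genes just inside the 0.8 threshold, and Kctd15 (-0.80), Mtl5 (-0.80) and Slco3a1 (-0.77) were those just outside it.

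Across the 20 genes, 7 had all 3 -Dox arrays of Chek1_R outside the range of the 24 other arrays (Oasl2, Clec2d, Dnahc8, Defcr26, H2-T23, Acsl4 and Fgf15), 3 had all 3 +Dox arrays outside it (Dnahc8 and Pdgfa among them), and 11 had neither. Over all probes past the filter these shares were 2.18%, 1.52% and 96.6%. The members were chosen on these arrays, and 4 of the 7 are the probes at or near the floor, so nothing is read from the counts. For 9 genes the clone level, the mean of the +Dox and -Dox means, differed more among the 4 other clones than Chek1_R changed on Dox withdrawal, as did 89.7% of all probes.

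**Figure D3:**
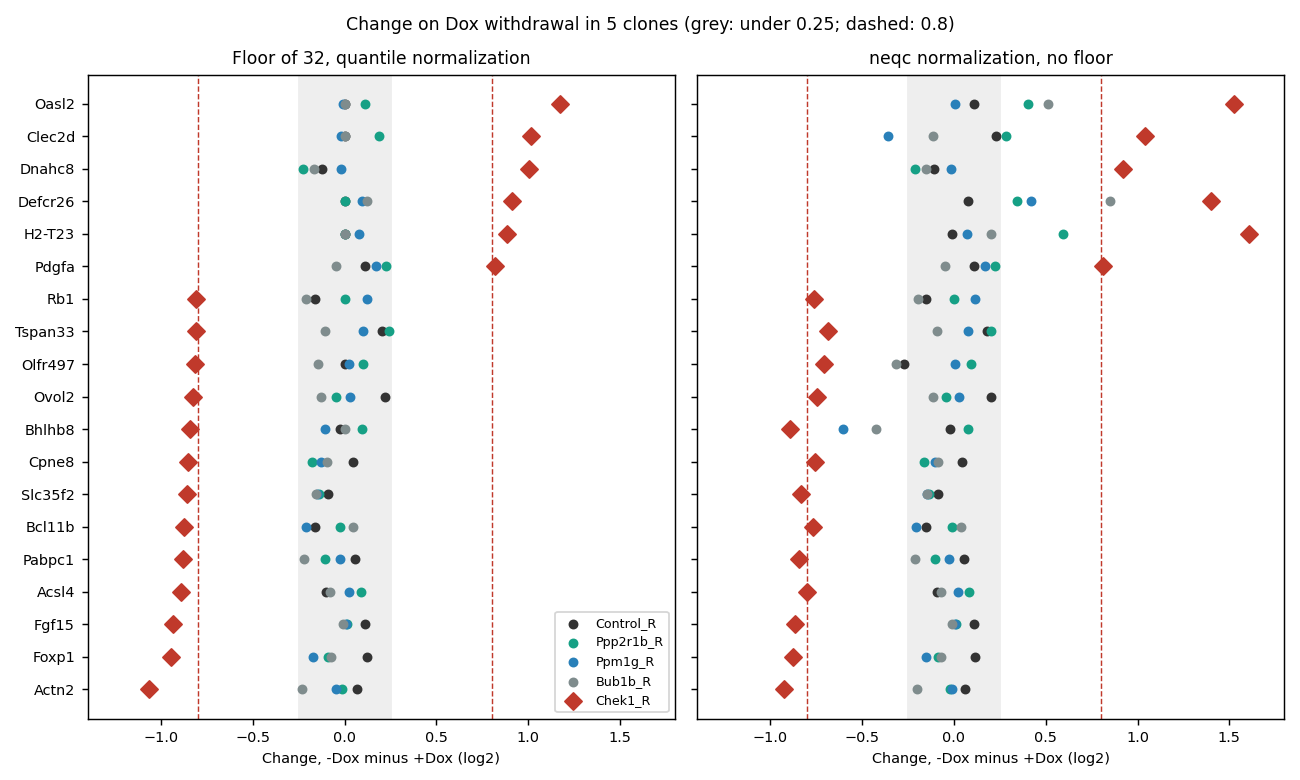
Change on Dox withdrawal (log2) of 19 of the 20 genes in 5 clones, on the scale that chose them (left) and after neqc normalization without a floor (right), with the range under 0.25 in grey and dashed lines at 0.8. On the right, changes in other clones leave the grey range for Oasl2, Clec2d, Defcr26, H2-T23, Olfr497 and Bhlhb8, and 7 genes keep both conditions of the rule.

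How far the changes carry over to arrays whose changes did not choose them was described by applying the rule 3 times. Each time 1 replicate number was left out, and Chek1_R was measured on the arrays left out. The detection filter and the normalization used all 30 arrays, so the arrays left out still took part in these steps. H2-T23, for example, passed that filter with 5 detected arrays, 3 of them -Dox arrays of Chek1_R. The 3 rounds made 65 choices in all, with some genes chosen more than once, and in 64 the left-out arrays differed in the same direction, in 29 of them by at least 0.8. All probes that changed by 0.8 in the arrays used, whatever the other clones did, kept the direction in 99.4% of 2522 cases and the size in 73.2%, against 98.5% and 44.6% of the 65. The sets differ in size of change, with a median of 1.06 over all such probes and 0.89 over the 65 on the arrays used, so the shares past 0.8 are not like for like. A gene whose +Dox arrays all lie at the floor cannot turn negative, and of the 39 choices with no Chek1_R array under the floor 39 kept the direction and 17 the size. The median size of the 65 on the arrays left out was 0.79. Oasl2 was chosen in each round, with left-out changes of 1.20, 1.18 and 1.15, and so was Foxp1, with -0.64, -1.12 and -1.09. The gene that turned its sign was Tmem107 (0.03 after -0.82). Since direction is nearly fixed for any probe past 0.8, nothing particular to the chosen genes is read from it. In 12 of 65 cases (18.5%) the left-out arrays of all 4 other clones also differed by less than 0.25, against 51.9% of cases over all probes under that limit on the arrays used. With no array under the floor these were 3 of 33 (9.09%) against 49.6%, and each such difference rests on 1 array per condition.

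**Figure D4:**
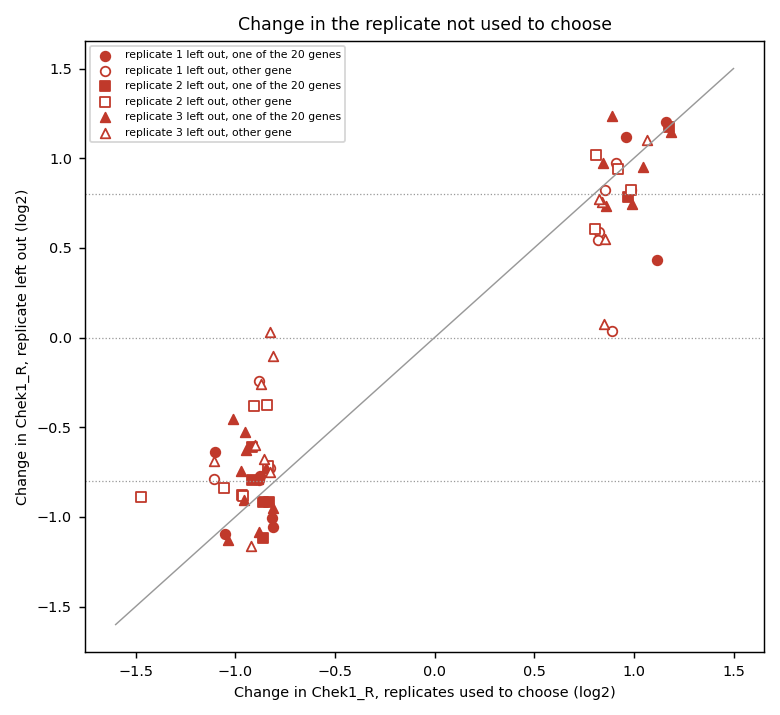
Change of Chek1_R (log2) on the arrays left out against that on the arrays that chose the genes, for 3 rounds (circles, squares and triangles). Filled symbols are among the 20 genes, the line marks equality, dotted lines mark 0 and 0.8 in each direction, and 64 of 65 points lie on the same side of 0 on both axes.

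The clone level, the mean of both conditions, was compared between Chek1_R and other clones. For probes above the floor its error is independent of the change only where both conditions have equal spread, which the fit assumes. The level itself also holds 1 of the 2 conditions that the rule set apart and so carries part of the chosen change. A call is therefore not independent of the rule and is given as a description of level. Against the mean of Ppm1g_R and Ppp2r1b_R, 0 genes were higher and 0 lower at an adjusted p under 0.05 and 1.5-fold (limma), where 1.05% and 2.13% of all probes were called. With a floor of 16, 4 genes were higher, 3 of them among the genes with Chek1_R arrays under the floor of 32, where 1.82% of all probes were called higher. Without the fold limit 11 genes passed, against 41.4% of all probes, and 12 had an unadjusted p under 0.05, against 47.7%, while an unmoderated t-test also called 0. The nearest to the limit were Actn2, 0.52 higher (SE 0.09, adjusted p = 6.2e-05), and Pdgfa, with a difference of -0.47 (SE 0.05, adjusted p = 6.07e-08). The median difference of the 20 genes was 0.20, against 0.01 for all probes, and was 0.02 over the 15 genes with no Chek1_R array under the floor, of which 7 had an unadjusted p under 0.05. For Oasl2, Clec2d, Defcr26, H2-T23 and Bhlhb8, which had Chek1_R arrays under the floor, level and change are not independent, and of the other 15 genes 5 were higher and 1 lower at any size.

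Against Control_R, 2 genes were higher and 7 lower, where 12.6% and 9.79% of all probes were called. The higher genes were Oasl2 and Olfr497, both at the floor on every Control_R array, so that the size of their differences is set by the floor. For Oasl2, at the floor with Dox in Chek1_R too, this restates the change that chose it. Of the 15 genes with no Chek1_R array under the floor, 1 was higher and 6 were lower. The count of higher genes was 0 with scaling to one median, 4 under neqc and 5 with a floor of 16. The lower genes were Bcl11b, Actn2, Bhlhb8, Tspan33, Fgf15, Slc35f2 and Rb1, all from the falling group. With Dox alone, 4 of these 7 lay within 1.5-fold of Control_R, with differences of -0.45 for Tspan33, -0.31 for Rb1, -0.28 for Slc35f2 and -0.19 for Fgf15, so for them the call rests on the fall that chose them. Bcl11b (-1.66), Bhlhb8 (-0.75) and Actn2 (-0.66) were past 1.5-fold with Dox as well. Among all 387 probes that fell by at least 0.8 in Chek1_R, 73.4% were lower than in Control_R, and among the 425 that rose, 74.1% were higher, so a lower level in falling genes is not particular to these. Bcl11b differed by -2.02 (SE 0.12, adjusted p = 4.05e-12 by limma), Actn2 by -1.22 (SE 0.10, adjusted p = 7.57e-10 by limma) and Rb1 by -0.63. Bhlhb8 was at or near the floor without Dox in Chek1_R, so its difference is a bound and has no order among these. The difference of Pdgfa was -0.02 (SE 0.05, adjusted p = 0.825 by limma). Bub1b_R and Control_R form a set of 12 arrays on which a signal counted as detected from 12.9 to 20.9 upward, and on the 18 arrays of the remaining clones from 27.8 to 58.1 upward. The comparison therefore spans both sets, and array set and clone cannot be told apart in it.

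**Figure D5:**
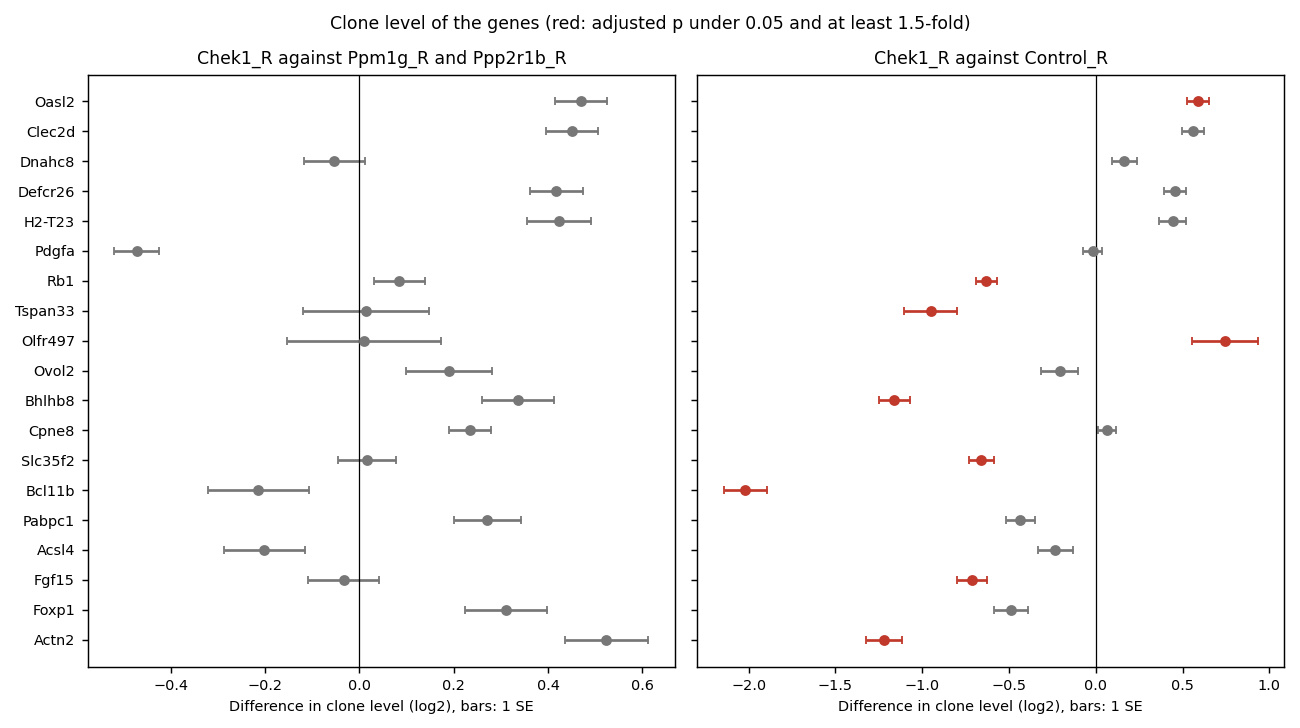
Difference in clone level (log2; points with bars of 1 SE, limma fit of 30 arrays) between Chek1_R and the mean of Ppm1g_R and Ppp2r1b_R (left) or Control_R (right) for 19 of the 20 genes. Red points passed an adjusted p under 0.05 and 1.5-fold: 0 on the left and 9 on the right, 7 of these below 0.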

How the data were processed

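The authors deposited, for each of 25697 probes on 30 arrays, a signal intensity that was not normalized between arrays and a detection p-value per probe; the labels name lumi without a version. Spreadsheet dates stood in place of a detection p-value in 46 cells of 1 array (Ppm1g_R -Dox 2) and 14 cells of another (Bub1b_R -Dox 2). Times of day gave back 28 and 6 of these values, and the remaining 18 and 8 were filled from the probe closest in signal.

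Signals were floored at 32, log2-transformed and quantile-normalized over 30 arrays in R 4.3.3 with limma 3.58.1. A probe was kept where its detection p fell below 0.05 on 3 or more arrays (15151 probes). A gene was taken when its mean -Dox minus mean +Dox was at least 0.8 in size in Chek1_R and under 0.25 in size in each other clone. Clone levels were tested by limma on 10 condition means (20 residual degrees of freedom), with Benjamini-Hochberg adjustment over all probes kept, and called when the adjusted p was below 0.05 and the difference reached 1.5-fold. With 3 arrays per condition, the number of arrays limits the precision, and p-values measure only the spread between these samples, which may be technical. The members and the gene lists were chosen with earlier results of these data known. Of the 20 genes, 19 are named and 1 is counted but not reported here. Gene symbols are those of the deposited table: 17 matched a RefSeq symbol and 3 a synonym. Replicates of a condition correlated at 0.991 to 0.997. The alternatives were other normalizations, floors, filters, thresholds and tests, a replicate block, and leaving out each array.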

Additional observations from a re-analysis of the deposited data

How the results depend on the processing

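Of the 20 genes, 7 were kept under neqc normalization, 13 with scaling to one median, 13 with a floor of 16 and 13 with no floor. Rising genes numbered 3 with scaling to one median and 3 with no floor, and falling genes 7 under neqc. A size of 0.6 gave 15 rising and 37 falling genes, a size of 1.0 gave 3 and 1, a limit of 0.15 gave 3 and 4, a limit of 0.4 gave 29 and 40, and no limit on Control_R gave 11 rising. Of 2 alternatives chosen after seeing the data, 1 asked every probe of a gene past the filter to meet the limit. It kept 15 genes, but only 8 of the 20 genes had another probe past the filter, and 3 of these 8 were kept. The other, keeping only genes with no array under the floor, left 2 rising among 13. Leaving out 1 array at a time gave 4 to 10 rising and 9 to 17 falling genes. The falling count was 9 without Chek1_R +Dox replicate 1, and the rising count was 10 without Chek1_R +Dox replicate 3. Tspan33 was kept in 22 of 30 such settings, and Oasl2 and Fgf15 in all 30, although Oasl2 met the rule under 0 of 4 other normalizations and Fgf15 under 4. A floor of 16 and no floor are among these 4 and left the change of Fgf15 in Chek1_R at -0.94. No gene reversed its change in Chek1_R under the 4 normalizations, and 19 of 80 values moved by more than the replicate spread.

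In clone level against Ppm1g_R and Ppp2r1b_R, a floor of 16 called 4 genes higher and no fold limit called 10 higher and 1 lower; leaving out arrays gave 0 in each direction. Against Control_R, genes called higher numbered 4 under neqc, 0 with scaling to one median, 5 with a floor of 16, 6 with no fold limit and 0 at 2-fold, where 3 were lower. Leaving out arrays gave 1 to 3 higher, with 1 without Chek1_R -Dox replicate 1, and 7 lower throughout. The cause of these shifts was not tested. With the replicate block the counts were 0 and 0 against Ppm1g_R and Ppp2r1b_R, and 2 and 7 against Control_R. Deviations of same-numbered samples correlated between -0.235 and 0.194, with a mean of -0.002, against 0.001 for other pairs. On average no shared effect of the replicate number was seen. The sources used here do not say whether the numbers pair the samples.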

Other observations

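Under neqc normalization, 6 genes outside the 20 met the rule. Trim21, an antibody receptor and ubiquitin ligase of the interferon response, differed by 0.85 in Chek1_R, Npy, a neuropeptide, by 0.92, Pde1a, a cyclic nucleotide phosphodiesterase, by 0.92, and 1600021P15Rik by 0.84. Itga2b, an integrin of megakaryocytes and early blood cells, differed by -0.85 and Cyp2j13, a cytochrome P450, by -0.84. On the floored scale Trim21 had missed the rule by a change of 0.27 and Cyp2j13 by 0.26, each in Ppp2r1b_R, Itga2b by 0.35 in Control_R, 1600021P15Rik by 0.27 in Bub1b_R and -0.29 in Control_R, and Npy and Pde1a by their size in Chek1_R there, 0.52 and 0.32.

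The same rule turned to Ppm1g_R returned Ppm1g itself, the hairpin's target, with a change of -1.29. It was picked after its value was seen and is given as a value only.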
